A study of Mus musculus with 30 samples.

Results

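The response of 3T3-L1 cells to benzyl butyl phthalate (BBP), set against the solvent DMSO, is described here over all 14763 named genes. The differences come from 6 of the 30 arrays of the study, the 3 titled BBP and the 3 titled DMSO. Their standard errors and p-values come from a model of all 30 arrays in 10 groups. 3T3-L1 is a clonal mouse preadipocyte line whose cells stay fibroblast-like until a differentiation stimulus turns them into fat cells. Cells of the BBP group received BBP for 10 days, from the 2nd day past confluence, in a medium that held 10% foetal bovine serum, and cells of the DMSO group received 0.1% DMSO in the same medium over the same time. Other groups used for comparison were DEHP, BPA and ROSI (the usual abbreviations of di(2-ethylhexyl) phthalate, bisphenol A and rosiglitazone), treated on the same schedule, with 3 arrays each. The labels do not spell out BBP either, and the doses of BBP, DEHP, BPA and ROSI are not given in the sources used here, so no comparison between agents is at a known matched dose. The study's remaining groups were MDI (a hormonal cocktail in which insulin at 10 µg/mL was joined during the first 48 h by dexamethasone (0.25 µM) and isobutyl methylxanthine (0.5 mM) and then given alone for 8 days), TBT, BP, EB and PP.

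Each array compared the RNA of a sample with a common reference made from equal parts of control and exposed samples. A level below is the log2 ratio of sample over that reference, so that 0 is the level of the mixture and a level says nothing about the abundance of a gene relative to another. A difference is the mean log2 level in BBP minus that in the other group, with its standard error (SE) from limma's linear model. The threshold for calling a gene was an adjusted p under 0.05 (Benjamini-Hochberg, over all entries on the array).

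In fat cell differentiation the early factors C/EBPβ and C/EBPδ give way to PPARγ and C/EBPα, which together switch on genes of lipid uptake, lipid synthesis, lipid droplets and insulin response. PPARγ is the receptor of the thiazolidinedione drugs, to which rosiglitazone belongs, and metabolites of several phthalate esters are known ligands of PPARs. BBP and DEHP are both diesters of phthalic acid, BBP with a benzyl and a butyl group and DEHP with a pair of branched 2-ethylhexyl groups.

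Array medians ran from -0.0034 to 0.013 and the spread of values (SD over genes) ran from 0.168 to 0.199 on the BBP arrays and from 0.241 to 0.291 on the DMSO arrays. Across genes, each array was correlated with the mean of the other 2 arrays of its group. The correlations were 0.688 to 0.735 in BBP and 0.883 to 0.897 in DMSO. The SD over genes of an array's deviations from its group mean was similar, 0.081 to 0.097 in BBP and 0.078 to 0.091 in DMSO. DMSO replicate 2 had the lowest mean of the 26 mature adipocyte markers, -2.18 against -1.93 and -1.79 on the other DMSO arrays. The design text names 3 biological replicates per condition. Whether these were separate cultures is not stated. The p-values measure the spread between arrays within groups, pooled over all 10 groups, which may be technical in part.

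BBP changed 1460 of the 14763 named genes against DMSO, which is 9.89% of those tested. Of these, 1093 were higher in BBP (7.4% of genes tested) and 367 were lower (2.49%). The rises were the larger changes: 57 genes were at least 2-fold higher and 1 gene at least 2-fold lower, while the median called gene differed by 0.27 on the log2 scale. The 1 gene lower by that much, Slc25a14, a mitochondrial carrier singled out here after its values were seen, had levels of 0.22, -0.42 and -0.53 in BBP and 0.081, 0.31 and 2.76 in DMSO, so that its difference rested on DMSO replicate 3. Levels of the BBP arrays did not overlap those of the DMSO arrays in 4211 genes (28.5%). Without DMSO replicate 2 the count of called genes was 814 (681 higher and 133 lower). Without BBP replicate 3 it was 969 with 191 lower, and without BBP replicate 2 the lower calls numbered 210. A fit of the BBP and DMSO arrays alone called 892 genes (740 higher and 152 lower). After quantile normalization, which forces all arrays onto 1 distribution although DMSO arrays had the wider spread, 947 genes were called, and 54% of them were higher in BBP, against 74.9% with the values as deposited.

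Genes of fat cells led the response. Fabp4, the fatty acid binding protein of adipocytes, had levels of -0.96, -1.01 and -0.99 in BBP and -3.38, -4.03 and -3.40 in DMSO, a 6.13-fold rise (log2 fold change 2.62, SE 0.13, adjusted p 1.95e-13). Scd1, which puts the first double bond into newly made fatty acids, had levels of -0.64, -0.54 and -0.43 in BBP and -2.97, -3.31 and -2.90 in DMSO (5.75-fold, log2 fold change 2.52, SE 0.094, adjusted p 3.1e-15). All 3 BBP arrays lay more than 2 log2 units above all 3 DMSO arrays for both genes. Adipoq, which encodes the secreted hormone adiponectin, had levels of -0.45, -0.49 and -0.14 in BBP and -2.69, -2.78 and -2.52 in DMSO (4.95-fold, log2 fold change 2.31, SE 0.10, adjusted p 4.16e-14). Cd36, the fatty acid transporter of the plasma membrane, had levels of -0.73, -0.80 and -0.72 in BBP and -2.83, -3.05 and -2.72 in DMSO (4.35-fold, log2 fold change 2.12, SE 0.10, adjusted p 1.15e-13). The BBP arrays were tightly grouped for Cd36 and the DMSO arrays were all far below them. Fabp4, Scd1, Adipoq and Cd36 were picked as large rises among genes whose groups did not overlap. Their separation was thus set by that choice. Over the alternatives run, all stayed called, with differences as low as 1.39, 1.22, 1.085 and 0.72, in the same order. Because these are bulk RNA samples, more fat cells in the dish and more RNA of these genes per cell cannot be told apart.

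Among the other genes with the largest rises, several make or store triglyceride. Thrsp, a lipogenic factor of fat and liver, had levels of -0.12, -0.21 and 0.084 in BBP and -2.38, -2.72 and -2.14 in DMSO (log2 fold change 2.33, SE 0.10, adjusted p 6.23e-14). Gpd1, which makes the glycerol phosphate backbone, had levels of -1.07, -1.11 and -0.81 in BBP and -3.03, -3.55 and -2.74 in DMSO (log2 fold change 2.11, SE 0.13, adjusted p 1.28e-11). Dgat2, which adds the last fatty acid to triglyceride, had levels of -1.23, -1.18 and -0.95 in BBP and -2.97, -3.16 and -2.71 in DMSO (log2 fold change 1.83, SE 0.091, adjusted p 3.6e-13). The groups were far apart for these 3 genes, but the difference of Dgat2 after quantile normalization was 0.16 and was no longer called (adjusted p 0.332). Pck1, the PEPCK enzyme that adipocytes use to make glycerol phosphate, had levels of -0.81, -0.66 and -0.67 in BBP and -2.86, -2.89 and -2.59 in DMSO (log2 fold change 2.07, SE 0.10, adjusted p 1.02e-13). Cidec, which helps lipid droplets to fuse, had levels of -1.12, -1.15 and -0.92 in BBP and -3.04, -3.49 and -2.83 in DMSO (log2 fold change 2.06, SE 0.12, adjusted p 1.12e-11). Plin1, the perilipin that coats the droplet, had levels of -0.45, -0.67 and -0.36 in BBP and -2.25, -2.34 and -2.20 in DMSO (log2 fold change 1.77, SE 0.093, adjusted p 1.09e-12). These genes, apart from Plin1, were picked among genes whose groups did not overlap, so their separation was set by that choice. Plin1 also kept its BBP arrays above its DMSO arrays. Thrsp, Gpd1, Pck1, Cidec and Plin1 stayed called under each alternative run, with smaller differences under some. Their lowest differences were 1.29, 0.61, 0.70, 0.50 and 0.71, in the order given.

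The list of largest rises also held genes with other roles. Cox8b, a muscle and fat isoform of a cytochrome oxidase subunit, had levels of -0.76, -0.66 and -0.57 in BBP and -3.31, -3.43 and -3.07 in DMSO (6.10-fold, log2 fold change 2.61, SE 0.12, adjusted p 6.23e-14). Ifi27l2a, an interferon-inducible gene, had levels of -0.57, -0.37 and -0.32 in BBP and -2.91, -3.04 and -2.77 in DMSO (5.60-fold, log2 fold change 2.48, SE 0.11, adjusted p 6.23e-14). Of 30 interferon response genes 2 rose and 0 fell, with a list median of 0.10, while 7.4% of all genes tested rose. The call besides Ifi27l2a was Gbp6, a guanylate binding protein, at 0.36 (adjusted p 0.0108). The call of Gbp6 was lost after quantile normalization (adjusted p 0.0507). Ces1d, a triglyceride hydrolase, rose by 2.27, Mrap, the accessory protein of the melanocortin receptors in fat and adrenal, by 2.16, Car3, the carbonic anhydrase abundant in fat, by 2.11, and Arxes2, an adipocyte gene, by 2.01. The adjusted p-values of these 4 genes lay between 6.23e-14 and 1.11e-11. Over the alternatives run, the differences of Cox8b and Ifi27l2a went as low as 1.36 and 1.22. Those of Ces1d, Mrap, Car3 and Arxes2 went as low as 1.31, 0.84, 0.72 and 0.79.

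**Figure D1:**
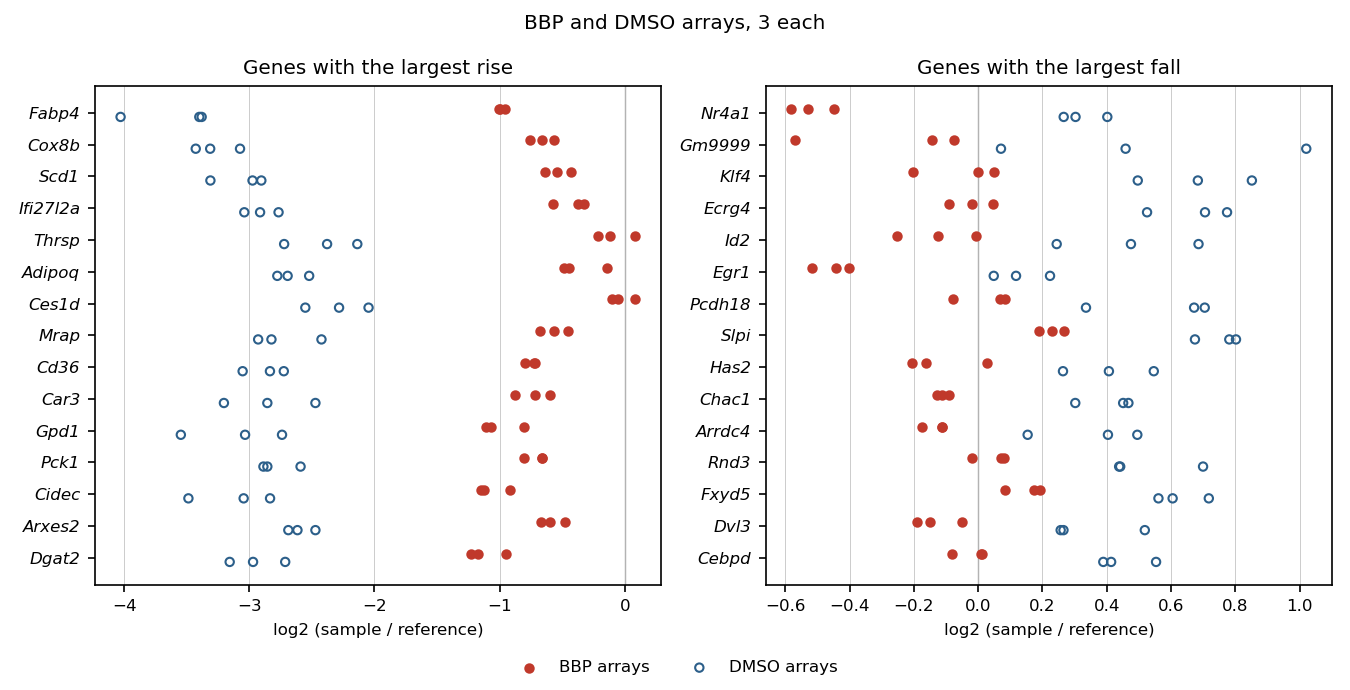
Log2 level (sample over reference) on each BBP array (filled) and each DMSO array (open) for the 15 genes with the largest rise (left) and the 15 with the largest fall (right) among those called without overlap of arrays. The scales of the panels differ: the rises run to 2.62 log2 units for Fabp4 and the falls to 0.84 for Nr4a1.

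The factors that drive differentiation changed by smaller amounts than the genes above. Pparg, the master regulator, had levels of -0.56, -0.51 and -0.40 in BBP and -1.30, -1.51 and -1.24 in DMSO (1.81-fold, log2 fold change 0.86, SE 0.064, adjusted p 5.39e-10). Cebpa, its partner, had levels of -0.035, -0.055 and 0.15 in BBP and -0.95, -1.09 and -0.71 in DMSO (log2 fold change 0.94, SE 0.089, adjusted p 4.54e-08). Nr1h3, the oxysterol receptor LXRα, had levels of -0.47, -0.38 and -0.21 in BBP and -1.30, -1.44 and -1.20 in DMSO (log2 fold change 0.96, SE 0.076, adjusted p 1.66e-09). All 3 factors were higher on every BBP array than on any DMSO array. After quantile normalization they were still called, with smaller differences of 0.22 for Pparg (adjusted p 0.0277), 0.62 for Cebpa and 0.39 for Nr1h3. Cebpd, an early factor, was lower in BBP, with levels of 0.011, 0.0085 and -0.081 in BBP and 0.41, 0.55 and 0.39 in DMSO (log2 fold change -0.47, SE 0.10, adjusted p 0.00378). For Cebpb the difference was -0.12 (95% interval -0.26 to 0.018) and did not pass the test. Of 22 measured adipogenic regulators, 5 rose and 2 fell, while 7.4% of all genes tested rose and 2.49% fell. The list median of 0.073 became -0.005 after quantile normalization.

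Lists of known genes describe the breadth of the fat cell program. Of 26 mature adipocyte markers, 23 rose and 0 fell, with a median difference of 1.46, while over all named genes 7.4% rose and the median was 0.013. Among 27 PPARγ targets 19 rose (median 0.58), among 19 lipid droplet and lipolysis genes 14 (median 0.66), among 16 genes of triglyceride synthesis 9 (median 0.33) and among 23 of fatty acid synthesis 14 (median 0.26), with 0 falls in these 4 lists. The lists share members, and they were chosen with earlier results of these data known, so they are not separate support. After quantile normalization the rises numbered 18 of 26 adipocyte markers, 8 of 27 PPARγ targets, with 3 of them called lower, 9 of 19 lipid droplet genes, 5 of 16 triglyceride genes and 9 of 23 fatty acid synthesis genes, with 1 lower. The medians of these 5 lists were then 0.36, 0.12, 0.18, 0.07 and 0.14. Mature adipocyte markers averaged -0.58 ± 0.047 on the BBP arrays and -1.97 ± 0.20 on the DMSO arrays (mean ± SD, n = 3 each).

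Members of these lists covered uptake, synthesis and storage. Agpat2, an acyltransferase of triglyceride synthesis mutated in congenital lipodystrophy, rose by 1.28 (adjusted p 8.53e-10), and Gpat3, which acylates glycerol phosphate, by 1.04 (adjusted p 1.1e-09), although the call of Gpat3 was lost after quantile normalization (difference 0.14). Fasn, fatty acid synthase, had levels of -0.32, -0.33 and -0.21 in BBP and -0.90, -1.04 and -0.76 in DMSO (log2 fold change 0.62, SE 0.087, adjusted p 2.02e-05). Acss2, which makes acetyl-CoA from acetate, rose by 0.65, and Pcx, pyruvate carboxylase, by 1.52 (adjusted p 8.78e-09 and 2.83e-10). Lpl, the lipoprotein lipase that frees fatty acids from lipoproteins, had levels of -0.44, -0.46 and -0.43 in BBP and -1.08, -1.19 and -1.10 in DMSO (log2 fold change 0.68, SE 0.058, adjusted p 7.13e-09), and its 2 probes gave 0.54 and 0.82. Plin4, a droplet coat protein, rose by 0.98 (adjusted p 9.87e-12). Over the alternatives run, the differences of Agpat2, Fasn and Acss2 went as low as 0.36, 0.25 and 0.27. Those of Pcx, Lpl and Plin4 went as low as 0.66, 0.17 and 0.355. Among LXR targets 8 of 13 rose (7.4% of all genes tested), led after Scd1 by Apoc1, an exchangeable apolipoprotein, at 1.78 (adjusted p 4.19e-11).

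Some classical PPAR targets did not pass the test or lost their call. Angptl4, a secreted inhibitor of lipoprotein lipase, had levels of -1.05, -1.12 and -0.86 in BBP and -1.45, -1.35 and -0.95 in DMSO and a difference of 0.24 that did not pass the test (adjusted p 0.145), although it did without DMSO replicate 3 (0.39), and its sign turned after quantile normalization (-0.57). Pdk4, the kinase that shuts pyruvate dehydrogenase, had a difference of -0.09 (95% interval -0.24 to 0.056) that was called after quantile normalization and under no other alternative run (-0.38). Fabp3, the heart-type fatty acid binding protein, had levels of -2.41, -2.64 and -2.60 in BBP and -3.11, -3.81 and -2.76 in DMSO and was called with 0.68 (adjusted p 0.0167). That call was lost without BBP replicate 1 and without DMSO replicate 2, and the sign turned after quantile normalization (-0.62).

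Slc2a4, the insulin-responsive glucose transporter GLUT4, had levels of -1.09, -1.04 and -0.97 in BBP and -2.72, -2.94 and -2.48 in DMSO (3.21-fold, log2 fold change 1.68, SE 0.082, adjusted p 2.27e-13), but its difference was 0.16 and not called after quantile normalization. Retn, which encodes the hormone resistin, had levels of -0.74, -0.68 and -0.75 in BBP and -2.19, -2.22 and -1.92 in DMSO (log2 fold change 1.39, SE 0.083, adjusted p 1.11e-11). The BBP arrays of Retn lay close together, above all DMSO arrays. Over the alternatives run, the difference of Retn went as low as 0.32. Of 31 genes of glucose handling, 11 rose and 0 fell (median 0.10), while 7.4% of all genes tested rose. Among them were Ldhb, a lactate dehydrogenase subunit, at 0.79 (adjusted p 5.04e-11) and Pgm1, a phosphoglucomutase of glycogen metabolism, at 0.52 (adjusted p 1.96e-06). After quantile normalization 2 of the list rose and Pgm1 was no longer called.

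Many genes of mitochondrial lists rose. Over all genes tested 7.4% rose and 2.49% fell. Of 60 genes of oxidative phosphorylation, 43 rose and 0 fell (median 0.28). Of 76 mitochondrial ribosomal proteins 24 rose and 0 fell (median 0.12). Cyc1, cytochrome c1 of complex III, had levels of -0.23, -0.18 and -0.14 in BBP and -1.02, -1.18 and -0.91 in DMSO (log2 fold change 0.85, SE 0.059, adjusted p 1.48e-10), and Uqcrc2, a core subunit of the same complex, had levels of -0.49, -0.43 and -0.35 in BBP and -1.12, -1.14 and -1.07 in DMSO (log2 fold change 0.69, SE 0.045, adjusted p 5.88e-11). Both genes were higher on each BBP array. Of 26 genes of the TCA cycle 19 rose and 1 fell, with Pdhb, a subunit of pyruvate dehydrogenase, at 0.79 (adjusted p 9.02e-08) and Cs, citrate synthase, at 0.58 (adjusted p 9.34e-08). Fatty acid oxidation had 18 of 28 genes higher (median 0.33), with Echs1, an enoyl-CoA hydratase, at 0.58 (adjusted p 1.11e-07). Branched-chain amino acid breakdown had 14 of 19 higher, with Aldh6a1, the dehydrogenase of the valine pathway, at 1.15 (adjusted p 6.08e-08). After quantile normalization the higher calls fell to 15, 10, 7, 4 and 7 in these lists, in the order given, with 2 lower calls in oxidative phosphorylation and 2 in the TCA cycle. Of 11 thermogenic genes 7 rose with the values as deposited, but the list median of 0.58 turned to -0.004 after quantile normalization, with 2 higher and 3 lower calls.

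Cholesterol synthesis rose almost as a whole. Of 20 measured genes 18 rose and 0 fell, with a median of 0.40, while 7.4% of all genes tested rose. Quantile normalization gave 15 rises and a median of 0.31. The list averaged -0.008 ± 0.014 on the BBP arrays and -0.45 ± 0.052 on the DMSO arrays (mean ± SD, n = 3 each). These genes are controlled in a known way by the sterol-sensing factor SREBP2, which works with the CCAAT-binding factor NF-Y. Idi1, the isomerase that makes the allylic isoprenoid unit, had levels of -0.023, -0.0078 and -0.018 in BBP and -0.64, -0.69 and -0.91 in DMSO (log2 fold change 0.73, SE 0.07, adjusted p 5.4e-08). Nsdhl, a sterol dehydrogenase late in the pathway, had levels of -0.067, -0.022 and -0.027 in BBP and -0.65, -0.79 and -0.72 in DMSO (log2 fold change 0.68, SE 0.068, adjusted p 7.95e-08). Pmvk, phosphomevalonate kinase, had levels of -0.32, -0.40 and -0.26 in BBP and -1.05, -1.21 and -1.12 in DMSO (log2 fold change 0.80, SE 0.058, adjusted p 3.49e-10). The BBP arrays of Idi1 were nearly identical, and the groups did not overlap for any of the 3 genes. Tm7sf2, a sterol reductase, rose by 0.59 (adjusted p 4.56e-08). Hmgcs1, which makes HMG-CoA at the entry of the pathway, had levels of -0.084, -0.034 and 0.034 in BBP and -0.32, -0.29 and -0.39 in DMSO (log2 fold change 0.31, SE 0.046, adjusted p 4.28e-05), a mean of 2 probes that gave 0.003 and 0.61.

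The promoters of 3 of these genes, from RefSeq on build GRCm38.p6, are shown because members of the list moved together. Each runs from 250 bases before the start of the gene to 50 bases after it, 5′ to 3′ on the gene's strand, and capitals mark CCAAT on either strand (CCAAT or ATTGG).
Idi1 (chr13:8885356-8885655, plus strand): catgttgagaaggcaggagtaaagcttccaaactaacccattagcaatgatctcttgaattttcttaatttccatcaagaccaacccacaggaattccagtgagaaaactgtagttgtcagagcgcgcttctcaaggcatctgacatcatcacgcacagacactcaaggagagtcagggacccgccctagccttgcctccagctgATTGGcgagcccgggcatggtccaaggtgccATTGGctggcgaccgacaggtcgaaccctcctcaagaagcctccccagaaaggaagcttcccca
Nsdhl (chrX:72918271-72918570, plus strand): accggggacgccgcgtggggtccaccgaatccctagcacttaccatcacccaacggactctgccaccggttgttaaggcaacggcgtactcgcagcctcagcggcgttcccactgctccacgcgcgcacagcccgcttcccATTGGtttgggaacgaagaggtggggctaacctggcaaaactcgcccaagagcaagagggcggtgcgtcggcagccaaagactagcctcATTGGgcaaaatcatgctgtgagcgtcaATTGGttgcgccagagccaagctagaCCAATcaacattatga
Hmgcs1 (chr13:119690101-119690400, plus strand): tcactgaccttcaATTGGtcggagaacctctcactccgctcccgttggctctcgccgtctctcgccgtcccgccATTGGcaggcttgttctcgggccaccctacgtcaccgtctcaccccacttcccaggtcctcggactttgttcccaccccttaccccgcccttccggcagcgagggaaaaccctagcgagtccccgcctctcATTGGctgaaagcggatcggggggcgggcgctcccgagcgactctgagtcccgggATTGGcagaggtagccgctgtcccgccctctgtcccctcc
The Idi1 window held 2 matches, the Nsdhl window 4 and the Hmgcs1 window 4. A promoter entry matched 16 of the 20 genes of the list, and all 16 had CCAAT in at least 1 window, as did 42.3% of measured genes with an entry. The motif was in 16 of the list's 19 windows (84.21%). Over the 14588 windows of measured genes the share was 37.7%, and over all 32851 windows it was 37.41%. The letters TCACNCCAC, a form of the sterol response element, were found on either strand in 1 of the 19 windows, that of Hmgcs1 (5.26%, against 1.24% of all windows). A match is a description of these letters and no evidence of binding.

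**Figure D2:**
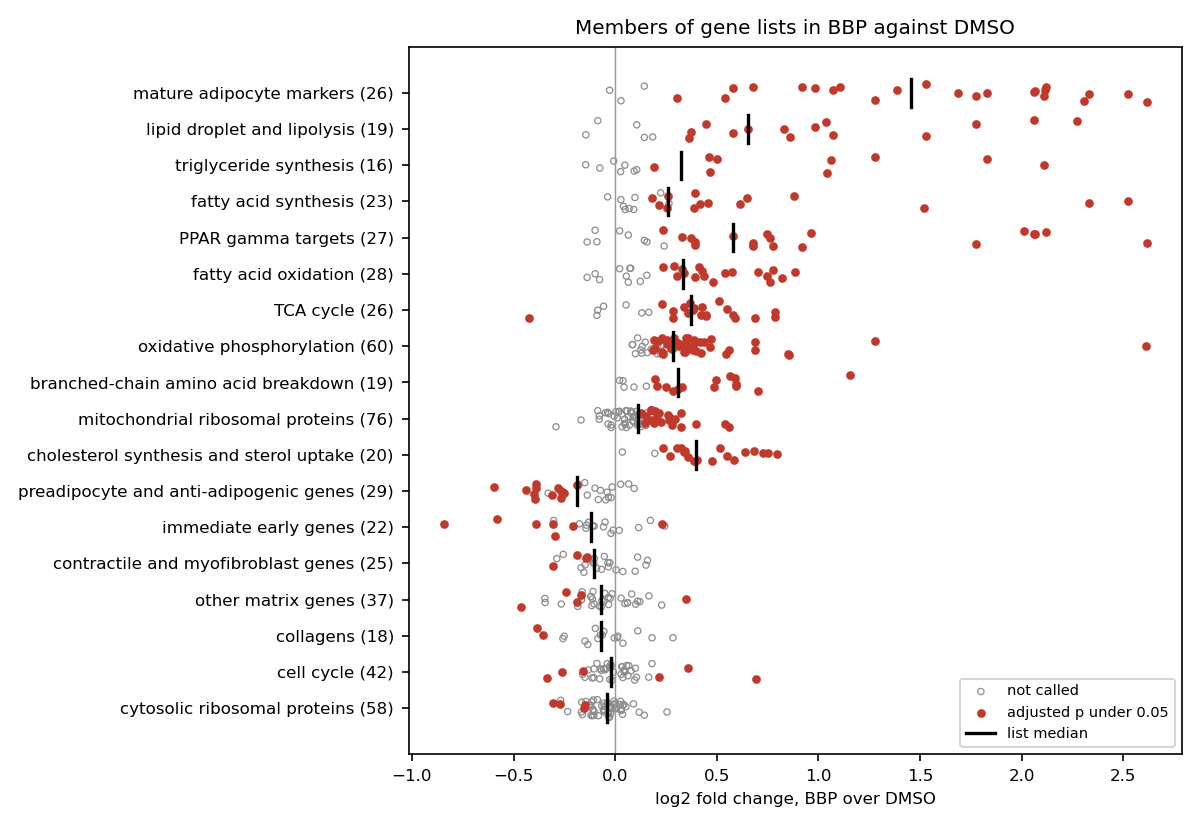
Log2 fold change of BBP over DMSO for each measured member of 18 gene lists (list size in brackets), filled where the adjusted p was under 0.05, with the list median as a bar. The medians of the fat cell, lipid, mitochondrial and cholesterol lists lie to the right of 0 and most preadipocyte and immediate early genes to the left.

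Genes that fell did so by less, and regulators led them. Nr4a1, an orphan nuclear receptor induced within minutes by growth signals, had levels of -0.45, -0.53 and -0.58 in BBP and 0.27, 0.40 and 0.30 in DMSO (log2 fold change -0.84, SE 0.057, adjusted p 8.88e-11). Egr1, a zinc finger factor of the same early response, had levels of -0.44, -0.40 and -0.52 in BBP and 0.049, 0.22 and 0.12 in DMSO (log2 fold change -0.58, SE 0.10, adjusted p 0.000282). The 3 BBP arrays of both genes lay below 0 and the 3 DMSO arrays above 0. Klf4, a Krüppel-like factor, had levels of -0.0006, 0.051 and -0.20 in BBP and 0.68, 0.85 and 0.50 in DMSO (log2 fold change -0.73, SE 0.11, adjusted p 5.12e-05). Id2, an inhibitor of helix-loop-helix factors, had levels of -0.007, -0.12 and -0.25 in BBP and 0.48, 0.69 and 0.24 in DMSO (log2 fold change -0.60, SE 0.12, adjusted p 0.00125), and its relatives Id1 and Id3 fell by 0.40 and 0.39 (adjusted p 0.000172 and 0.00497). Ecrg4, a secreted peptide precursor, had levels of -0.02, 0.047 and -0.092 in BBP and 0.53, 0.77 and 0.71 in DMSO (log2 fold change -0.69, SE 0.09, adjusted p 5.77e-06). Nr4a1, Egr1, Klf4, Id2 and Ecrg4 were picked among genes whose groups did not overlap, so their lack of overlap is no separate result.

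Of 22 immediate early genes 6 fell and 1 rose, with a median of -0.12, while 2.49% of all genes tested fell and 7.4% rose. Without DMSO replicate 2, 3 of the list fell. Besides Nr4a1 and Egr1, Atf3, a stress-induced factor, was at -0.30 (adjusted p 0.00108) and Egr2, a relative of Egr1, at -0.29 (adjusted p 0.00993). The call of Egr2 was lost without BBP replicate 1 and without DMSO replicate 2. The Nr4a1 promoter is shown because this gene had the lowest difference of all called genes without overlap, with capitals on TGACG or its reverse complement CGTCA, the core of the cAMP response element.
Nr4a1 (chr15:101266596-101266895, plus strand, RefSeq, GRCm38.p6): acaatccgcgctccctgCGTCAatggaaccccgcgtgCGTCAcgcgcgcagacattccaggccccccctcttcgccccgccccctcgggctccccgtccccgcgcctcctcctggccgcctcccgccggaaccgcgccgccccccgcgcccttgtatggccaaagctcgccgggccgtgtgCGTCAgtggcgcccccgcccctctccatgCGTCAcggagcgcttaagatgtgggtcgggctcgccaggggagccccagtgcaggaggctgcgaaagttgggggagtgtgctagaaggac
The window held 4 matches. Among the 22 windows of 16 immediate early genes with an entry, 12 held TGACG on either strand (54.55%), against 27.76% of the windows of measured genes and 20.81% of all windows. The motif was not particular to genes that fell. Windows of the cholesterol list, whose genes rose, held it in 8 of 19 cases (42.11%). The full element TGACGTCA was in 3 of the 22 immediate early windows (13.64%), against 2.74% of the windows of measured genes. These counts are descriptions without a test.

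Other falls were spread over several classes of gene. Slpi, a secreted protease inhibitor, had levels of 0.27, 0.23 and 0.19 in BBP and 0.67, 0.80 and 0.78 in DMSO (log2 fold change -0.52, SE 0.074, adjusted p 1.85e-05). Fxyd5, a regulator of the sodium pump, had levels of 0.17, 0.084 and 0.19 in BBP and 0.60, 0.56 and 0.72 in DMSO (log2 fold change -0.48, SE 0.068, adjusted p 2.39e-05). Chac1, which degrades glutathione and is induced by amino acid lack, fell by 0.52, and Trib3, a pseudokinase of the same response, by 0.47 (adjusted p 1.38e-05 and 2.43e-05). These genes held under each alternative that was run. Has2, a hyaluronan synthase, Pcdh18, a protocadherin, and Arrdc4, an arrestin-domain protein, fell by 0.52, 0.55 and 0.48, and all 3 calls were lost without DMSO replicate 2, with adjusted p-values over the alternatives reaching 0.0529, 0.1 and 0.0586. Gm9999 (levels of -0.076, -0.14 and -0.57 in BBP and 0.46, 0.071 and 1.02 in DMSO) and Dvl3, a Wnt signal transducer (levels of -0.049, -0.19 and -0.15 in BBP and 0.52, 0.27 and 0.26 in DMSO), were called at adjusted p 0.0352 and 0.0447 and lost the call when any of 4 single arrays (Gm9999) or any of the 6 arrays (Dvl3) was left out.

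Of 29 preadipocyte and anti-adipogenic genes 12 fell and 0 rose (median -0.19, background of 2.49% lower), but 5 fell without DMSO replicate 2. Besides the Id genes, Ddit3, the stress factor CHOP, fell by 0.27 (adjusted p 0.00303). Dlk1, the preadipocyte factor Pref-1, had levels of 0.075, 0.14 and 0.20 in BBP and 0.17, 0.20 and 0.29 in DMSO and a difference of -0.083 (95% interval -0.21 to 0.048), and its 2 probes differed in sign. Collagens had 2 lower calls of 18, namely Col18a1 at -0.38 (adjusted p 0.000116) and Col5a1 at -0.35 (adjusted p 0.0195). The call of Col5a1 was lost without BBP replicate 2, without BBP replicate 3 and without DMSO replicate 2. Col1a1, the main chain of type I collagen, had a difference of -0.25 (95% interval -0.45 to -0.053) that did not pass the test after adjustment (adjusted p 0.111).

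Of 25 contractile genes of the fibroblast 4 fell and 0 rose (median -0.10), with 2.49% of all genes lower. They were led by Tpm2, a tropomyosin, at -0.19 (adjusted p 0.00145), and 1 fell without DMSO replicate 2. Acta2, smooth muscle actin, had levels of 0.42, 0.52 and 0.44 in BBP and 0.58, 0.53 and 0.44 in DMSO, a difference of -0.053 with a 95% interval of -0.23 to 0.12. Myl9, a myosin light chain, had levels of 0.56, 0.62 and 0.48 in BBP and 0.50, 0.61 and 0.44 in DMSO, a difference of 0.038 with a 95% interval of -0.11 to 0.19. The arrays of the groups overlapped for both genes. Other matrix genes had 4 lower and 1 higher calls of 37, and 0 were lower without DMSO replicate 2. The higher one was Ogn, a small proteoglycan, at 0.35 (adjusted p 0.01), a call lost without BBP replicate 2 (adjusted p 0.054).

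Of all genes tested, 7.4% were higher and 2.49% lower, against which the counts of signalling, stress and xenobiotic lists are given. Il6, a cytokine, had levels of -0.13, -0.10 and -0.21 in BBP and 0.34, 0.27 and 0.13 in DMSO (log2 fold change -0.39, SE 0.061, adjusted p 7.26e-05), and 5 of 30 chemokines and inflammatory mediators fell while 1 rose, with 1 fall without DMSO replicate 2. Ccl2, a chemokine of preadipocytes, had a difference of 0.019 (95% interval -0.17 to 0.21). Of 35 Nrf2 and glutathione genes 11 rose and 0 fell (median 0.11), and those with the smallest p were Mgst1, a microsomal glutathione transferase, at 0.57, Cat, catalase, at 0.42, Me1, malic enzyme, at 0.39 and Aox1, aldehyde oxidase, at 0.44, with adjusted p-values between 1.65e-06 and 4.96e-05. After quantile normalization 4 of the list rose. The aryl hydrocarbon receptor targets had 1 call of 9, Aldh3a1, an aldehyde dehydrogenase, at -0.27 (adjusted p 0.00081), and Cyp1b1, a further target, had a difference of -0.0079 (95% interval -0.12 to 0.10). ER stress and amino acid response genes had 2 higher and 5 lower calls of 37, and Dnajb9, an ER chaperone, was at 0.39 (adjusted p 1.37e-06). Glucocorticoid response genes had 4 higher and 4 lower calls of 21 (1 to 5 lower when single arrays were left out, and 2 higher and 7 lower after quantile normalization), and oestrogen response genes 3 higher and 2 lower of 15.

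Further lists are read against 7.4% of all genes called higher and 2.49% lower. Other xenobiotic enzymes had 6 higher and 1 lower of 36, with Ephx2, the soluble epoxide hydrolase, at 1.43 (adjusted p 1.4e-10) and Sult1a1, a phenol sulfotransferase, at 0.76 (adjusted p 3.64e-08). Heat shock genes had 4 higher of 17, retinoid genes 4 higher and 1 lower of 19, and metal transport genes 1 higher of 16, which was Tfrc, the transferrin receptor, at 0.50 (adjusted p 1.86e-05). After quantile normalization heat shock genes had 1 higher, retinoid genes 0 higher and 2 lower, and Tfrc was no longer called (0.13, adjusted p 0.0695); leaving out single arrays gave as few as 1 higher heat shock gene. TGFβ and BMP pathway genes had 3 lower of 19 and Wnt pathway genes 1 lower of 23, and 0 were lower in either list without DMSO replicate 2. Nuclear receptors had 4 higher and 3 lower of 28, including Esrra, the oestrogen-related receptor α, at 0.47 (adjusted p 7.05e-06). Among 18 p53 targets and 11 clock genes, 1 rose and 1 fell in each list.

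Of 42 cell cycle genes 3 rose and 3 fell (7.4% and 2.49% of all genes), among them the CDK inhibitor Cdkn2c at 0.69 (adjusted p 2.52e-06) and the cyclin Ccnd1 at -0.34 (adjusted p 0.000153). Cytosolic ribosomal proteins had 4 lower calls and 0 higher of 58 (median -0.038), and 0 lower calls without DMSO replicate 2.

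Markers listed for other cell types gave 3 calls among 27 genes. Over all genes tested 9.89% were called, 7.4% higher and 2.49% lower. In the macrophage list of 9 the call was Lyz1 at -0.31 (adjusted p 0.0237), in the skeletal muscle list of 6 it was Acta1 at -0.29 (adjusted p 0.0105), and in the osteoblast list of 4 it was Alpl at 0.36 (adjusted p 0.0082). All 3 calls were lost without DMSO replicate 2 and in a fit of BBP and DMSO alone, that of Lyz1 also without BBP replicate 1 or 3, and that of Acta1 also without BBP replicate 3 or DMSO replicate 1. Alpl lost its call at 0.013 after quantile normalization too. The 2 endothelial, 3 chondrocyte and 3 epithelial markers gave 0 calls by limma, and 0, 1 and 0 of them had an unadjusted p under 0.05. The mean level of the macrophage list ran from 0.11 to 0.23 on BBP arrays and from 0.14 to 0.25 on DMSO arrays. For skeletal muscle the ranges were -0.039 to 0.002 in BBP and 0.014 to 0.051 in DMSO, and for osteoblasts -0.11 to -0.047 in BBP and -0.17 to -0.12 in DMSO. Ratios to a reference do not show whether a marker was absent from both. The 8 adipocyte markers, by contrast, ran from -0.56 to -0.44 in BBP and from -2.18 to -1.81 in DMSO, with 7 higher, and the 8 fibroblast and preadipocyte markers from -0.10 to 0.012 in BBP and from 0.11 to 0.14 in DMSO, with 1 lower, Thy1, a surface glycoprotein of fibroblasts, at -0.27 (adjusted p 0.0126), a call lost without BBP replicate 2, without DMSO replicate 1 and in a fit of BBP and DMSO alone.

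BBP was set directly against 3 of the other agents, each in the same model and with p-values adjusted over all entries of the comparison. Between BBP and DEHP, the other phthalate diester, 928 genes differed (6.29%), 771 higher in BBP (5.22%) and 157 lower (1.06%), and the arrays did not overlap in 25% of genes. Without BBP replicate 3 the count was 595, and after quantile normalization it was 468, with 68.2% higher in BBP against 83.1% with the values as deposited. Mature adipocyte markers were higher in BBP for 23 of 26 genes (median 1.48), and for 16 after quantile normalization. Fabp4 had levels of -0.96, -1.01 and -0.99 in BBP and -3.28, -3.35 and -3.28 in DEHP (difference 2.31, SE 0.13, adjusted p 2.36e-12). Scd1 had levels of -0.64, -0.54 and -0.43 in BBP and -2.81, -2.81 and -2.72 in DEHP (difference 2.24, adjusted p 4.76e-14). The 2 groups were far apart for both genes, and Cox8b (2.45), Ifi27l2a (2.42), Adipoq (2.19), Thrsp (2.18), Ces1d (2.04) and Cd36 (1.97) made up the rest of the 8 genes highest in BBP. All 8 were picked among genes whose arrays did not overlap, so their separation was set by that choice.

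Other lists also separated the 2 phthalates. Pparg was higher in BBP by 0.76 (adjusted p 6.15e-09) and Cebpa by 0.92 (adjusted p 8.17e-08). The shares over all genes were 5.22% higher in BBP than in DEHP and 1.06% lower. Oxidative phosphorylation genes were higher in BBP for 48 of 60 members, against 13 higher and 2 lower after quantile normalization. Cholesterol synthesis genes were higher for 11 of 20. Idi1 had levels of -0.023, -0.0078 and -0.018 in BBP and -0.42, -0.54 and -0.53 in DEHP (difference 0.48, adjusted p 3.74e-05), so that the BBP arrays were all higher. Egr1 was the gene lowest in BBP relative to DEHP, with levels of -0.44, -0.40 and -0.52 in BBP and 0.30, 0.59 and 0.50 in DEHP (difference -0.92, SE 0.10, adjusted p 6.19e-07). Nr4a1 was lower by 0.41 (adjusted p 1.67e-05), and 6 of 22 immediate early genes were lower in BBP, with 3 to 5 when single arrays were left out. Slpi (-0.58), Ecrg4 (-0.55), Col18a1 (-0.45), Fam13b (-0.60) and Ccn1, a matricellular protein (-0.59), were lower too. For the contractile genes Acta2 and Myl9 the differences between BBP and DEHP did not pass the test, with 95% intervals of -0.10 to 0.25 and -0.16 to 0.14.

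**Figure D3:**
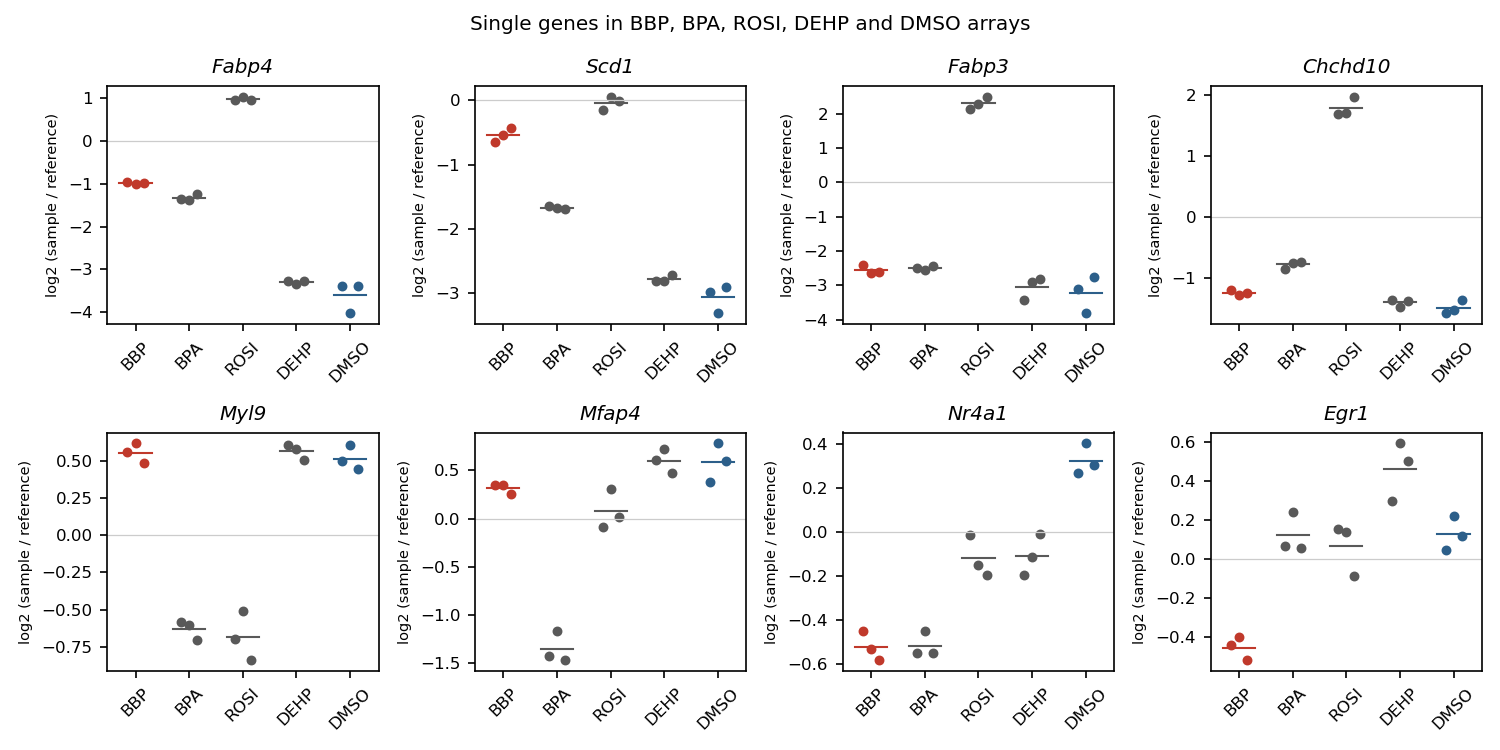
Log2 level of 8 genes on each array of the BBP, BPA, ROSI, DEHP and DMSO groups, with the group mean as a line. Fabp4 and Scd1 in BBP lie between ROSI and DEHP, Fabp3 and Chchd10 in BBP lie far below ROSI and nearer to DMSO, Myl9 and Mfap4 in BBP lie above BPA, and Egr1 in BBP lies below all 4 other groups.

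Against BPA, 1479 genes differed (10%), 827 higher in BBP (5.6%) and 652 lower (4.42%), and the arrays did not overlap in 30.6% of genes. Without BBP replicate 3 or BPA replicate 2 the count was 952 or 950. The median difference of the mature adipocyte markers was 0.25. Fabp4 in BPA had levels of -1.35, -1.38 and -1.25, which left a difference of 0.34 (95% interval 0.078 to 0.60, adjusted p 0.0958), and for Cd36 the difference was 0.11 (95% interval -0.10 to 0.31). Scd1 was higher in BBP by 1.13 (adjusted p 1.77e-08), with levels of -0.64, -0.54 and -0.43 in BBP and -1.65, -1.67 and -1.68 in BPA. Plin1 was lower in BBP by 0.43 (adjusted p 0.0035). In all, 10 adipocyte markers were higher and 2 lower in BBP, with 6 to 9 higher when single arrays were left out, and 7 higher and 3 lower with a median of 0.078 after quantile normalization.

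Contractile, matrix and cholesterol genes differed between BBP and BPA. Myl9 had levels of 0.56, 0.62 and 0.48 in BBP and -0.58, -0.60 and -0.70 in BPA (difference 1.18, SE 0.072, adjusted p 1.16e-10). Mfap4, a microfibril protein, had levels of 0.35, 0.35 and 0.25 in BBP and -1.43, -1.17 and -1.46 in BPA (difference 1.67, adjusted p 1.26e-10). Acta2 had levels of 0.42, 0.52 and 0.44 in BBP and -0.53, -0.69 and -0.63 in BPA (difference 1.08, adjusted p 7.01e-09). All 3 genes had every BBP array above every BPA array, which was a condition for picking Myl9 and Mfap4. In lists, 12 of 25 contractile genes, 15 of 37 other matrix genes and 13 of 20 cholesterol genes were higher in BBP, with 0, 1 and 0 lower. The shares over all genes were 5.6% higher in BBP than in BPA and 4.42% lower. Lower in BBP than in BPA were Gda, guanine deaminase (-1.10), Kitl, the ligand of the KIT receptor (-0.93), and Tgfbi, a TGFβ-induced matrix protein (-0.83), with adjusted p-values of 1.73e-09, 0.00124 and 4.09e-08. Cell cycle genes were lower in BBP for 13 of 42 members and higher for 2, with 4 to 10 lower when single arrays were left out, and cytosolic ribosomal proteins were lower for 12 of 58, with 8 to 11 lower when single arrays were left out.

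The PPARγ agonist rosiglitazone gave the widest gap among the 3 agents, with 3730 genes differing between BBP and ROSI (25.3%), 1766 higher in BBP (12%) and 1964 lower (13.3%), and the arrays did not overlap in 39.8% of genes. Fabp3 had levels of -2.41, -2.64 and -2.60 in BBP and 2.13, 2.29 and 2.49 in ROSI (difference -4.85, SE 0.18, adjusted p 5.47e-16). Chchd10, a mitochondrial intermembrane protein, had levels of -1.21, -1.29 and -1.26 in BBP and 1.70, 1.71 and 1.97 in ROSI (difference -3.05, adjusted p 4.77e-19). The BBP arrays of both genes lay far below the ROSI arrays and nearer to the DMSO level. Elovl3, an elongase of brown fat (-2.60), Cmbl, a hydrolase (-2.64), Cox7a1, a cytochrome oxidase subunit of muscle and brown fat (-2.52), Cd36 (-2.50), Pck1 (-2.32) and Cox8b (-2.31) completed the 8 lowest. Lack of overlap with the ROSI arrays was a condition for picking these 8, so it is no separate result. Differences varied with the gene: Scd1 was lower in BBP by 0.50 and Pparg by 0.29 (adjusted p 0.000195 and 0.00127), Retn was higher by 0.29 (adjusted p 0.0109), and the difference of Thrsp, 0.20, did not pass the test (95% interval -0.015 to 0.41). All 60 oxidative phosphorylation genes were lower in BBP than in ROSI (59 after quantile normalization and 57 to 59 when single arrays were left out), as were 24 of 27 PPARγ targets and 61 of 76 mitochondrial ribosomal proteins.

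Fibroblast genes ran the other way between BBP and ROSI. Mgp, a calcification inhibitor of the matrix (1.34), Myl9 (1.23), Acta2 (1.16), Ogn (1.02) and Cyp2f2, a cytochrome P450 (1.02), were among the 8 genes highest in BBP. Myl9 had levels of 0.56, 0.62 and 0.48 in BBP and -0.70, -0.51 and -0.84 in ROSI (adjusted p 1.51e-12). The shares over all genes were 12% higher in BBP than in ROSI and 13.3% lower. Higher in BBP were 24 of 37 other matrix genes and 17 of 25 contractile genes, with 0 and 1 lower. So were 14 of 29 preadipocyte genes and 27 of 42 cell cycle genes, with 0 and 3 lower.

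**Figure D4:**
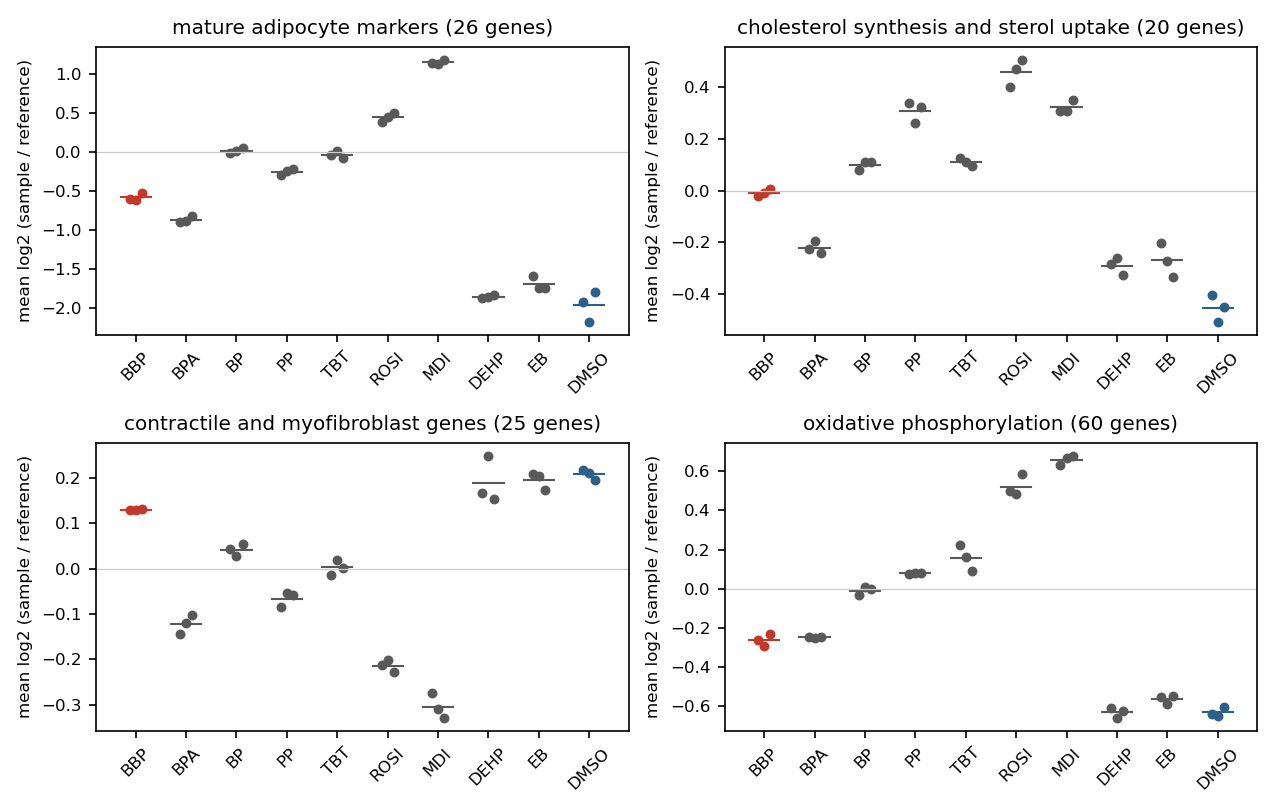
Mean log2 level of the members of 4 gene lists on each of the 30 arrays, with BBP at the left and DMSO at the right of each panel and group means as lines. Mature adipocyte markers average -0.58 in BBP, between PP at -0.25 and BPA at -0.87, while contractile genes average 0.13 in BBP, nearer to DMSO at 0.21 than to BPA at -0.12.

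The place of BBP among the 10 groups differed by list. Mature adipocyte markers averaged 1.15 in MDI, 0.45 in ROSI, 0.02 in BP, -0.031 in TBT, -0.25 in PP, -0.58 in BBP, -0.87 in BPA, -1.69 in EB, -1.86 in DEHP and -1.97 in DMSO, and neighbouring groups in this order overlapped in their arrays for BP with TBT and for DEHP with DMSO. Contractile genes averaged 0.13 ± 0.001 in BBP, below EB, DEHP and DMSO and above the 6 other groups, with no overlap of the BBP arrays with those of any other group. The contractile level of BBP, 0.13, was thus set beside a mean of 0.21 in DMSO and of -0.12 in BPA. These orders are descriptions without a test.

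Genes whose mean in BBP differed from that of each of the other 9 groups, with an adjusted p under 0.05 in all 9 comparisons, were then sought. That held for 4 genes higher in BBP (0.0271% of genes tested) and 0 lower by limma, against 16 higher and 2 lower at an unadjusted p under 0.05. E2f6, a repressor of the E2F family, had levels of 1.25, 0.83 and 2.55 in BBP and 0.29, 0.18 and 0.025 in DMSO (log2 fold change 1.38, SE 0.34, adjusted p 0.00855 against DMSO). Tmprss3, a membrane serine protease, had levels of 0.86, 0.18 and 1.67 in BBP and -0.32, -0.37 and -0.087 in DMSO (log2 fold change 1.16, SE 0.26, adjusted p 0.00362). Olfr520, an olfactory receptor gene, had levels of 0.14, 0.48 and 1.15 in BBP and 0.0088, -0.18 and -0.039 in DMSO (log2 fold change 0.66, SE 0.15, adjusted p 0.00358). Pjvk, which encodes pejvakin of the inner ear, had levels of 0.11, 0.27 and 0.46 in BBP and 0.087, -0.036 and -0.0061 in DMSO (log2 fold change 0.27, SE 0.062, adjusted p 0.00556). The lowest BBP array of each gene was overlapped by single arrays of other groups: PP replicate 2 for E2f6 (0.89), PP replicate 1 and BP replicate 3 for Tmprss3 (0.29 and 0.22), BPA replicate 2 and ROSI replicate 2 for Olfr520 (0.21 and 0.15), and BPA replicate 2 and MDI replicate 3 for Pjvk (0.18 and 0.15). In all 4 genes BBP replicate 3 was the highest of the BBP arrays, and the SD over BBP arrays of E2f6, Tmprss3 and Olfr520 was 0.90, 0.75 and 0.51, against a median of 0.055 over all genes. Leaving out 1 BBP array gave 9 genes without replicate 1, 10 without replicate 2 and 2 without replicate 3. The calls of E2f6 and Pjvk against DMSO were lost without BBP replicate 3, and those of all 4 genes in a fit of the BBP and DMSO arrays alone.

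**Figure D5:**
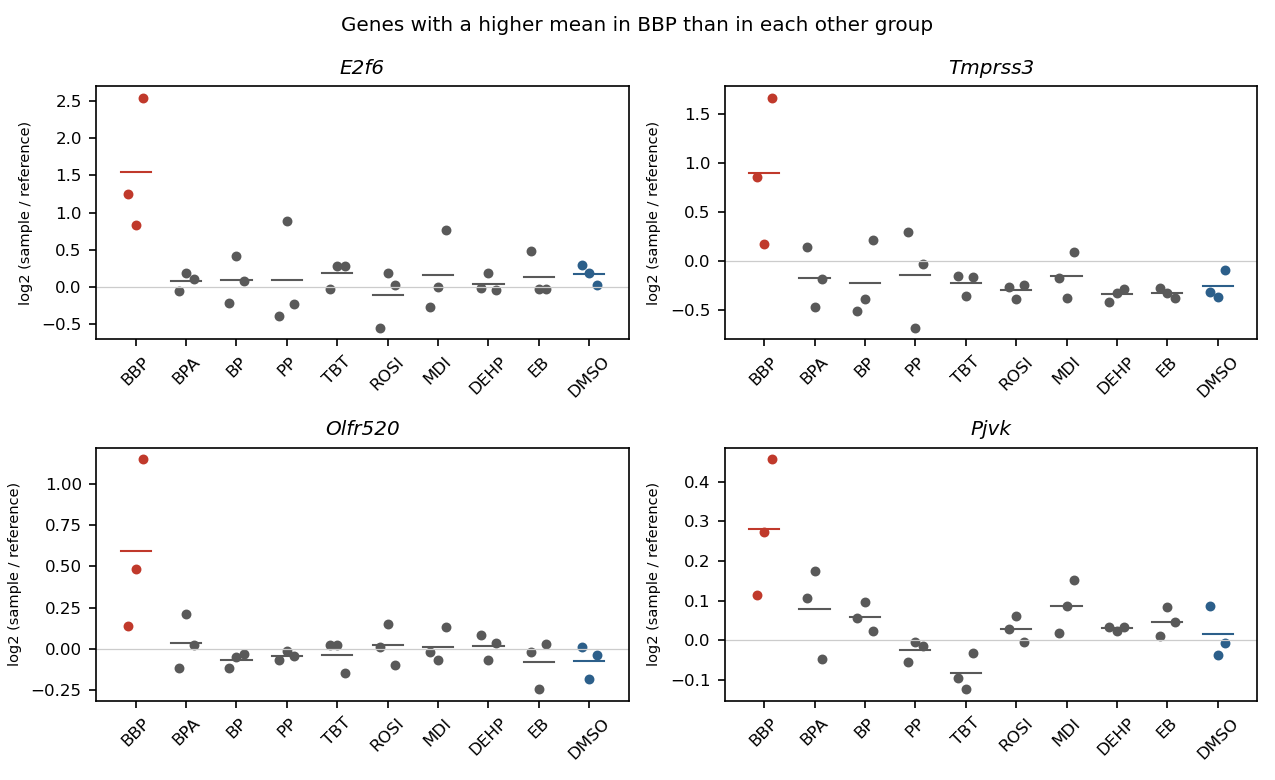
Log2 level on each of the 30 arrays of the 4 genes called higher in BBP than in each of the 9 other groups, with group means as lines. Single arrays of other groups lie above the lowest BBP array of each gene, and BBP replicate 3 carries its highest value, at 2.55 for E2f6, 1.67 for Tmprss3, 1.15 for Olfr520 and 0.46 for Pjvk.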

How the data were processed

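Total RNA of 3T3-L1 cells (Qiagen RNeasy, per the labels' protocols) was measured on 30 Agilent arrays with 2 colours, the sample in Cy3 and a common reference in Cy5. limma is named in the submitters' processing notes, while its version, the background correction and the normalization are not given in the sources used here. The authors deposited, for each probe, the log ratio of reference to sample. It was read as log2 because the BBP minus DMSO difference of the deposited log2 ratios was the negative of the log2 fold change in the authors' deposited table (r = -1 over 23460 probes, largest absolute sum 4.8e-08), and the sign was turned to sample over reference. The authors' deposited table also gives adjusted p-values, by which 2142 probes passed 0.05, with the method of adjustment not stated there.

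After 26 control probes were left out, 18966 probes had a gene symbol in the platform annotation, of which 18816 matched RefSeq by gene ID. Probes of a gene were averaged, which gave 14763 named genes and 4468 unnamed probes (19231 entries), and 3480 genes had several probes. A linear model of 10 group means over the 30 arrays used limma 3.58.1 (R 4.3.3) with eBayes. It had 20 residual degrees of freedom, and 3.56 were added by the prior. The tests were two-sided. The fit was also run on simulated data with independent normal noise and the same spread of a gene in all groups. Such data cannot show the effect of single outlying arrays or of unequal spread between groups. An exact permutation test of 3 against 3 arrays cannot go below p = 0.1. Figures were drawn with Python 3.11.15 and matplotlib 3.10.9. No intensities were used, so dim probes were not filtered, and the number of arrays limits the precision.

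Genes are named by a rule: the 15 highest and 15 lowest called genes without overlap against DMSO, 8 each way against DEHP, BPA and ROSI, genes for which BBP differed from all 9 other groups, the 4 members (or fewer) of smallest p from every list, and a set of key genes. The genes, the 38 pathway lists and 8 marker lists were chosen with earlier results of these data known. Alternatives were array centring, quantile normalization, robust eBayes, array weights, a replicate block, a fit of the compared groups only, other summaries of probes, a stricter threshold and leaving out single arrays. Same-numbered BBP and DMSO arrays did not deviate together (correlations of -0.034, 0.052 and 0.047), so the numbers were not taken as pairs.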

Additional observations from a re-analysis of the deposited data

How the results depend on the processing

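Array centring, robust eBayes, the median of probes, single probes and array weights kept each count of changed genes within 1.5 times its value. Quantile normalization gave 947 genes for BBP against DMSO (511 higher), 468 for BBP against DEHP and 8 genes that differed from all 9 groups, 4 of them lower. Of the 1460 genes called against DMSO, it kept 808 with their direction, left 579 with the same sign but not called, and turned 73, of which 9 were called the other way. It forces equal spread on all arrays, and whether this gave the smaller changes was not tested. Reversed after it were Bckdhb (-0.035), Cox7a1 (-0.365), Slc36a2 (-0.004), Hsd11b1 (-0.518), Angptl4 (-0.575), Fabp3 (-0.623) and Cyp1b1 (0.001). Ccl2 and Cyp1b1, neither called, turned with array weights (-0.002 and 0.028), and when single arrays were left out they ran from -0.046 to 0.109 and from -0.046 to 0.054. With only the compared groups 892 genes were called against DMSO (152 lower), which has fewer residual degrees of freedom. At an adjusted p under 0.01 the counts were 835 against DMSO (691 higher, 144 lower), 565 against DEHP, 742 against BPA and 2 that differed from all 9 groups. Leaving out single arrays gave 814 to 1559 genes against DMSO (681 to 1137 higher, 133 to 422 lower), 595 to 811 against DEHP, 950 to 1323 against BPA, 3123 to 3462 against ROSI and 2 to 10 that differed from all 9 groups. With the replicate block 1547 genes were called against DMSO, 949 against DEHP, 1528 against BPA and 3774 against ROSI, and the number of genes that differed from all 9 groups stayed at 4. Since the numbers do not pair the samples, the block says nothing more about the effect. Of 145 named genes called against DMSO, 80 kept call and direction under each alternative. Among 50 named genes with several probes, 5 had probes of different sign (Nkd2, Capn5, Steap3, Cnn3 and Dlk1), and Lpin1 (0.035 and 0.967) and Hmgcs1 (0.003 and 0.61) had probes furthest apart. The cause of the changes under the other alternatives was not tested either.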

Other observations

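Of the 57 genes at least 2-fold higher in BBP than in DMSO, 31 were in the gene lists and 26 in none. Those named here were picked out after their values were seen. Several are known from fat cells. Adig, adipogenin, had levels of -0.32, -0.43 and -0.29 in BBP and -1.77, -2.00 and -1.76 in DMSO (log2 fold change 1.5, adjusted p 1.86e-12). Orm1 and Orm2, which encode the acute-phase protein orosomucoid and are near-identical copies whose probes may not tell them apart, rose by 1.44 and 1.31. Orm1 had levels of -0.33, -0.20 and -0.089 in BBP, and averaged -1.19 in BPA, -1.60 in DEHP and 0.17 in ROSI. Rarres2, which encodes the chemoattractant chemerin, had levels of -0.54, -0.47 and -0.45 in BBP and -1.65, -1.53 and -1.50 in DMSO (log2 fold change 1.07), and Gpt, alanine aminotransferase, had levels of -0.34, -0.19 and -0.16 in BBP and -1.51, -1.68 and -1.55 in DMSO (log2 fold change 1.35). Sh2b2, an adaptor of the insulin receptor, rose by 1.20, Slc5a6, a vitamin transporter, by 1.20, and Dbi, an acyl-CoA binding protein, by 1.16. COX1, encoded in the mitochondrial genome, had levels of -0.26, -0.24 and -0.083 in BBP and -2.77, -0.87 and -0.80 in DMSO, with DMSO replicate 1 far below the other DMSO arrays (log2 fold change 1.29).

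A few called genes varied widely among the BBP arrays. Krt6b, a keratin, had levels of -0.05, 0.68 and 1.77 in BBP and -0.095, -0.006 and -0.08 in DMSO (adjusted p 0.0359), and Scyl3, a pseudokinase, had levels of 1.12, 0.058 and 1.64 in BBP and 0.11, 0.19 and 0.25 in DMSO (adjusted p 0.0455). In both BBP replicate 3 was highest and 1 BBP array lay within or next to the DMSO range. Zbtb18, a zinc finger repressor, was high on BBP replicate 2 alone, with levels of 0.012, 0.98 and 0.058 in BBP and -0.10, -0.089 and -0.24 in DMSO. Besides named genes, 318 probes without a gene name were called against DMSO.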
